A study of Mus musculus with 41 samples.

Results

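The genes described here are 55 genes that copy DNA, supply its building blocks or start S phase. They were taken by gene symbol, and all 55 were found among the 55453 genes of each deposited table. By role they comprise 4 genes of origin licensing, 6 of the MCM helicase core, 8 of helicase activation, 9 polymerase and primase subunits and 6 of the sliding clamp and its loader. The others are 5 genes of single-strand binding and lagging-strand maturation, 5 of nucleotide supply, 5 of chromatin and methylation copying, 4 of S phase entry and 3 of fork protection.

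DNA replication begins when the origin recognition complex, Cdc6 and Cdt1 load the MCM helicase onto DNA in G1. In S phase the Cdc7-Dbf4 kinase, Mcm10, Cdc45 and the GINS complex turn that helicase into a moving fork, which polymerases, the PCNA clamp and its RFC loader follow. Many genes of this machinery are known targets of E2F transcription factors, which retinoblastoma family proteins hold in check outside the cycle. Macrophages, monocytes and granulocytes inside a tumour are largely supplied from bone marrow precursors, and mature granulocytes do not divide.

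Cells came from tumours of MC38-luc, a derivative of the mouse colon carcinoma line MC38, grown in the rectum of C57BL6 female mice. Irradiated tumours received 5 Gy in each of 5 fractions, given once a day from day 9 to day 13 after implantation, and untreated tumours received none. All tumours were taken on day 14, and CD45+ CD11b+ cells were sorted into 3 subsets. Tumour-associated macrophages (TAM) were Ly6C- Ly6G- F480+, inflammatory monocytes (IM) were Ly6C+ Ly6G-, and granulocytes (Gran) were Ly6C+ Ly6G+. The labels list 41 RNA-seq libraries from 15 numbered tumours: 5 untreated and 10 irradiated of TAM, 5 and 9 of IM, and 5 and 7 of granulocytes. The tumour numbers recur across subsets, so the subsets share animals and the comparisons are not independent of each other. The model is a transplanted cell line, sampled 1 day after the last fraction, and no later time was labelled.

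For each subset the authors deposited a table that compares irradiated with untreated cells by DESeq2's Wald test. The deposited log2 fold change is negative where a gene was lower after irradiation. A gene is said here to have fallen or risen where the authors' adjusted p is under 0.05, with the direction of the Wald statistic. Single-library values were not analysed here, so no SD, overlap of groups or depth can be given. The fold divided by its Wald statistic gives an implied standard error, which ranged over the 55 genes from 0.10 to 0.61 in TAM, 0.10 to 0.65 in IM and 0.10 to 0.66 in granulocytes on the log2 scale. The folds may have been shrunken by the authors, and the implied error would then have been scaled with them.

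Because these genes are known as E2F targets and moved together, their promoters were searched for the letters of E2F sites, TTTGGCGC, TTTCCCGC, TTTGCCGC and TTTCGCGC, on both strands. RefSeq promoter windows on GRCm38.p6, each 300 bases with 250 before and 50 after a start, were given for 46 of the 55 genes. The windows are of an earlier build than the mm39 build of the expression tables. Stretches from 6 promoters are shown because they hold such letters before the start in genes of licensing, the MCM helicase and DNA polymerase alpha. Each is written 5′ to 3′ in the direction of the gene, with the matches in capitals. The Mcm5 stretch lies at chr8:75109326-75109397, plus strand, and the Mcm6 stretch at chr1:128359715-128359845, minus strand. The Mcm7 stretch lies at chr5:138172011-138172078, minus strand, and the Cdc6 stretch at chr11:98907983-98908050, plus strand. The Orc1 stretch lies at chr4:108579397-108579453, plus strand, and the Pola1 stretch at chrX:93632256-93632323, minus strand.
Mcm5: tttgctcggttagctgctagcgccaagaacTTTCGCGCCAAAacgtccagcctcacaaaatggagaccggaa
Mcm6: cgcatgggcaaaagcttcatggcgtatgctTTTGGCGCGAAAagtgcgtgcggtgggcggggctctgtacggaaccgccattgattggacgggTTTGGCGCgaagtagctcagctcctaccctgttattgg
Mcm7: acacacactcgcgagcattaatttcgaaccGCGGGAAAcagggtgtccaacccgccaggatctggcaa
Cdc6: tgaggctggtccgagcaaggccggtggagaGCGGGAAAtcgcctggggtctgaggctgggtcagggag
Orc1: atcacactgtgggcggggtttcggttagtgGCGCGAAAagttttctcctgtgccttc
Pola1: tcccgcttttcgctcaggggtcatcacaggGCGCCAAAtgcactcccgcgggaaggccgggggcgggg

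In Mcm5 the capitals join overlapping matches on opposite strands, which begin at positions -153 and -149 from the gene's start. Mcm6 has such an overlapping pair, which begins at -110 and -106, and a further match at -47. At least 1 match stood in the windows of 18 of 46 genes, which is 39.13%, against 4.48% of the 11375 genes tested in TAM that have a window and 2.6% of all 27025 genes with one. The genes were searched as known E2F targets, so this gap describes the list and is no result about irradiation. The MCM core had 4 of 5 genes with a match, licensing had 3 of 4 and the polymerases had 4 of 7. Helicase activation, the clamp and its loader, and single-strand binding with lagging-strand maturation had 1 of 5 each. Chromatin and methylation copying had 2 of 5 genes with a match, S phase entry 1 of 3 and fork protection 1 of 2. None of the 5 nucleotide supply genes had one in these windows. The 18 genes held 25 matches, of which 13 in 10 genes lay before the start. The letters were about as frequent in genes that fell in granulocytes (39.29% of 28) as in genes that did not pass there (38.89% of 18). In IM they stood in 4 of the 8 genes that fell and in 14 of the 38 (36.84%) that did not pass. A match of letters is a description of the window, not a measured binding site.

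**Figure D1:**
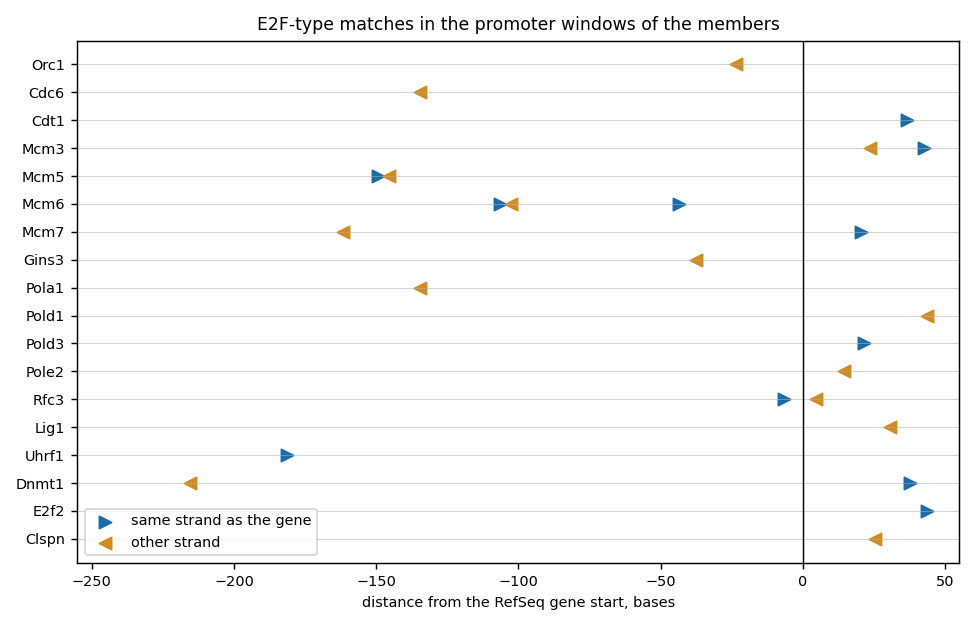
Position of each match to the E2F letters in the 18 promoters that hold one, in bases from the gene's start (x axis), with 1 line per gene; the colour and direction of a mark give its strand. Of the 25 matches, 13 lie before the start.

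The CCAAT letters, searched on both strands, stood in the windows of 27 of the 46 genes (58.7%), against 42.49% of the genes tested in TAM. All 5 MCM core genes with a window had them. The CHR letters TTTGAA, which mark promoters of many mitotic genes, stood in 19.57% of the 46 genes against 15.02%, and 4 of the 5 helicase activation genes with a window had them. Rrm2, which had no E2F letters in its window, is shown with its CCAAT in capitals at chr12:24708174-24708238, plus strand (position -50 from the start).
Rrm2: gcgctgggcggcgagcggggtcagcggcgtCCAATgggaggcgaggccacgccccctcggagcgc

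In TAM, 53 of the 55 genes fell after irradiation and none rose, by the authors' deposited table. Over all 16851 genes tested in TAM, 12.5% fell and 13.9% rose. The median log2 fold change of the 55 genes in that deposited table was -1.59, against 0.03 over all genes tested. Of the 55 genes, 41 had a deposited log2 fold change of -1 or lower, against 7.96% of all genes tested. All 55 had a negative Wald statistic, including Rfc1 and Pold3, the genes that did not pass. In sorted bulk RNA, fewer cycling cells and less RNA of these genes in each cell cannot be told apart.

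In granulocytes, 33 of the 55 genes fell and none rose, by the authors' deposited table, against 9.9% and 7.32% of 15679 genes tested. Their median log2 fold change there was -0.96, against -0.03 over all genes. In inflammatory monocytes, 8 fell and none rose in the authors' deposited table, against 1.77% and 4.13% of 14506 genes tested. The median there was -0.28, against 0.02 over all genes, and 44 of the 55 had a negative Wald statistic. The 8 genes were Mcm2, Mcm5, Cdc6, Pold2, Rrm2, Tk1, Uhrf1 and E2f2.

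The genes that fell in all 3 subsets were 7 of the 55, namely those 8 without E2f2, where 0.689% of all genes tested did so. A further 26 fell in TAM and granulocytes without passing in IM, 19 fell in TAM and passed in neither other subset, and E2f2 fell in TAM and IM. The shares of all genes in these further classes were not counted. Over all genes tested, 12.5% fell in TAM, 9.9% in granulocytes and 1.77% in IM, so fewer calls in IM are not particular to the 55. Roles described below with no gene that fell in IM are near the 1.77% of all genes and are not set apart by it. How far these classes differ between subsets was tested separately, since passing in 1 subset and not in another is no test of a difference.

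**Figure D2:**
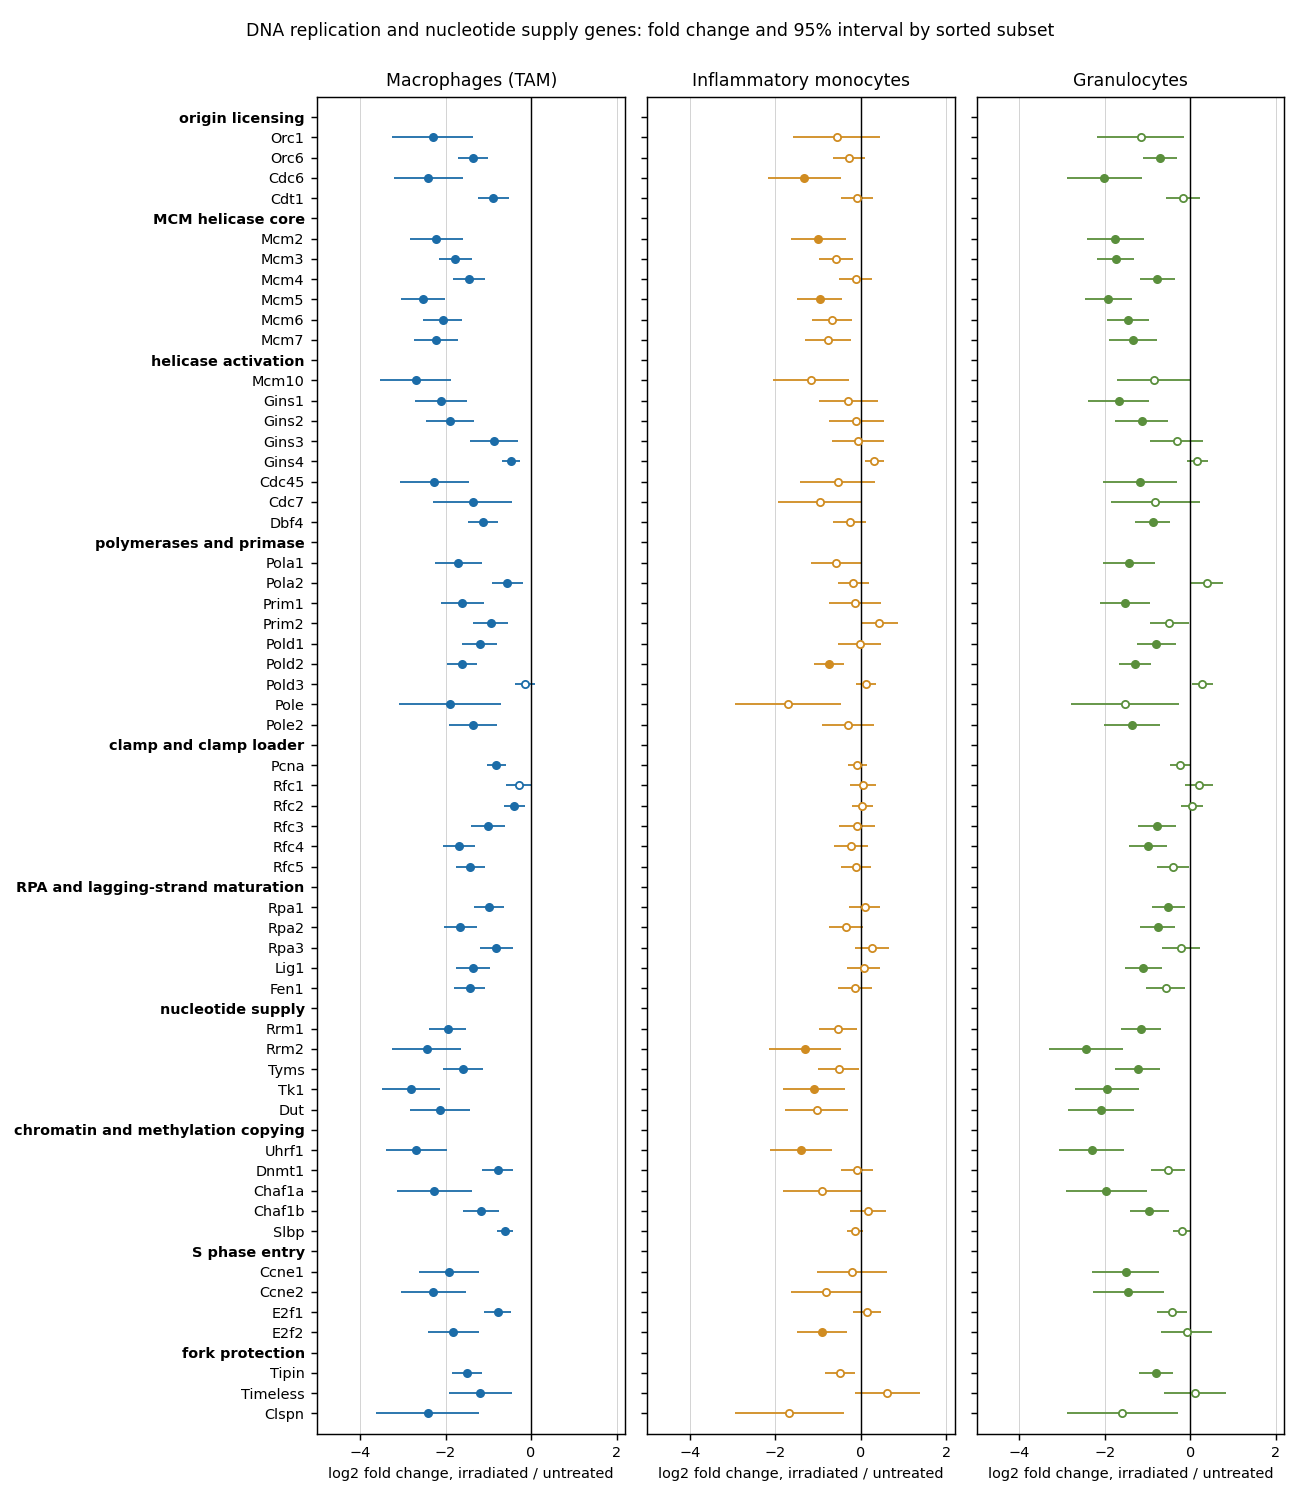
Deposited log2 fold change, irradiated against untreated, of each of the 55 genes in TAM, inflammatory monocytes and granulocytes, grouped by role, with 1 panel per subset; bars are 95% intervals from the implied standard error, and filled points passed an adjusted p of 0.05. In TAM all 55 points lie below 0, from -2.80 to -0.14, while in IM they run from -1.70 to 0.62.

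Origin licensing fell in TAM for 4 of 4 genes. Cdc6, the ATPase that brings the MCM helicase to origins, fell in every subset, with log2 fold changes of -2.41 in TAM, -1.32 in IM and -2.02 in granulocytes in the authors' deposited tables. Orc1, the large ATPase of the origin recognition complex, fell in TAM (-2.30, adjusted p 3.63e-05), while its deposited values of -0.56 in IM and -1.16 in granulocytes did not pass. The small subunit Orc6 fell in TAM (adjusted p 1.71e-11) and in granulocytes by 0.71 in the deposited tables. Cdt1, the MCM loader that geminin blocks, had the smallest TAM change of the 4, -0.88 in the authors' deposited table, and stood at -0.18 in granulocytes without passing.

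The MCM core, the ring that unwinds DNA, fell as a whole in TAM and in granulocytes, with 6 of 6 genes in each deposited table. The medians were -2.14 in TAM and -1.61 in granulocytes. Mcm5 had the smallest adjusted p of all 55 genes in TAM, with a log2 fold change of -2.53 (adjusted p 4.25e-19) in the authors' deposited table. It also fell by 1.92 in granulocytes (adjusted p 5.84e-09) and by 0.96 in IM (adjusted p 0.0131) in the deposited tables. Mcm2 was the other core gene that fell in IM, by 0.99 in the authors' deposited table (adjusted p 0.0466). Mcm3 and Mcm6 lay just past the threshold there, at -0.58 and -0.67 with an adjusted p of 0.0708 each in the deposited table. Mcm4 differed from its partners in having the core's smallest values in the deposited tables, -1.45 in TAM, -0.12 in IM and -0.77 in granulocytes. Mcm7 stood at -2.22 in TAM, -0.76 in IM and -1.33 in granulocytes in the deposited tables, with IM not passing.

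Of the 8 helicase activation genes, 8 fell in TAM, 0 in IM and 4 in granulocytes, against 12.5%, 1.77% and 9.9% of all genes tested. Mcm10, which helps to start unwinding, had the second lowest TAM value of the 55, -2.70 in the authors' deposited table (adjusted p 1.23e-08). Cdc45, a subunit of the active helicase, fell in TAM (-2.26) and in granulocytes (-1.19) in the deposited tables, just inside the threshold in the latter (adjusted p 0.0434). The 4 GINS subunits, which join Cdc45 and MCM in 1 complex, were unequal: in TAM the deposited table gave -2.11 for Gins1, -1.89 for Gins2, -0.86 for Gins3 and -0.47 for Gins4. Gins1 and Gins2 also fell in granulocytes, with -1.68 and -1.14 in the deposited table. Gins4 was the second most abundant of the 55 genes per length, with a deposited mean of 422.0 normalised counts per kilobase of exon over all libraries, against 47.1 for Gins1. In IM Gins4 stood at 0.31 in the authors' deposited table with an adjusted p of 0.0786. Cdc7, the S phase kinase, fell in TAM near the threshold (-1.37, adjusted p 0.0197), while its activator Dbf4 fell in TAM by 1.13 and in granulocytes by 0.88 in the deposited tables.

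Polymerase and primase subunits fell in TAM for 8 of 9 genes and in granulocytes for 5. Pold2, the accessory subunit of DNA polymerase delta, fell in all 3 subsets, with -1.61 in TAM, -0.74 in IM and -1.29 in granulocytes in the deposited tables, and had the smallest IM adjusted p of the 55 genes (0.00256). The catalytic subunit Pold1 fell in TAM (-1.20) and in granulocytes (-0.79) and stood at -0.02 in IM in the deposited tables. Pold3, another delta subunit, passed in no subset, with deposited values of -0.14, 0.13 and 0.28 in TAM, IM and granulocytes. In the polymerase alpha-primase complex, Pola1 and Prim1, the catalytic subunits, fell in TAM and granulocytes, with Pola1 at -1.70 and -1.44 and Prim1 at -1.61 and -1.53 in the deposited tables. Their partners Pola2 and Prim2 fell in TAM and passed in neither other subset, with -0.55 and -0.94 in TAM, and stood in granulocytes at 0.39 and -0.49 without passing in the deposited tables. Pole, the catalytic subunit of polymerase epsilon, had similar deposited values in the 3 subsets, -1.90 in TAM, -1.70 in IM and -1.52 in granulocytes, of which TAM passed (adjusted p 0.00983). Its mean of 7.3 counts per kilobase was the second lowest of the 55, and its implied standard error in TAM was 0.60. Pole2 fell in TAM (-1.36) and in granulocytes (-1.36) in the deposited tables.

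Of the 6 genes of the sliding clamp and its loader, 5 fell in TAM, 0 in IM and 2 in granulocytes, with medians of -0.91, -0.08 and -0.32. Pcna, the clamp that holds polymerases on DNA and the most abundant of the 55 genes per length (435.0 counts per kilobase), fell in TAM by 0.81 in the authors' deposited table (adjusted p 7.1e-11). It stood at -0.08 in IM and -0.24 in granulocytes in the deposited tables without passing. Of the loader, Rfc4 had the lowest value in TAM, -1.68 (adjusted p 1.08e-15), and fell by 0.99 in granulocytes in the deposited tables. Rfc5 (-1.42) and Rfc3 (adjusted p 1.58e-05) fell in TAM in the authors' deposited table. Rfc2 fell by 0.39 in TAM, and Rfc1, the large subunit, stood at -0.28 (adjusted p 0.167) in the authors' deposited table. Of the loader, Rfc3 and Rfc4 passed in granulocytes and no subunit passed in IM.

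All 5 genes of single-strand binding and lagging-strand maturation fell in TAM, 3 fell in granulocytes and none in IM. Rpa2, a subunit of the protein that coats single-stranded DNA, fell in TAM (-1.65, adjusted p 4.02e-15) and in granulocytes (-0.76) in the deposited tables. Rpa1 fell in TAM (-0.98) and in granulocytes (-0.52, adjusted p 0.048), and Rpa3 fell in TAM (-0.81) in the deposited tables. Lig1, the ligase that joins Okazaki fragments, fell in TAM (-1.37) and in granulocytes (-1.10), against 0.07 in IM in the deposited tables. Fen1, the nuclease that trims their flaps, fell by 1.43 in TAM and stood at -0.57 in granulocytes (adjusted p 0.0701) in the deposited tables. Exons of Fen1 are shared with Tmem258 and a predicted gene over 84.2% of their bases in GENCODE M21. The read counter was not given, so Fen1 counts may hold reads of its neighbours or lack reads from the shared bases. Gins2 shares 67.3% with Gse1 and Chaf1a 52.5% with Ubxn6, and the other members at most 17.4%.

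All 5 genes of nucleotide supply fell in TAM and in granulocytes and 2 fell in IM, with medians of -2.13, -1.95 and -1.03 in TAM, granulocytes and IM. Tk1, the cytosolic thymidine kinase of S phase, had the lowest TAM value of all 55 genes, -2.80 (adjusted p 2.36e-13), and fell in granulocytes (-1.95) and in IM (-1.09) in the deposited tables. Rrm2, the small subunit of ribonucleotide reductase, had a deposited value of -2.44 in TAM and in granulocytes, and -1.31 in IM (adjusted p 0.0432). Rrm1, the large subunit, fell less, with -1.95 in TAM and -1.16 in granulocytes in the deposited tables. Tyms, which makes thymidylate, fell in TAM (-1.59) and in granulocytes (-1.24) in the deposited tables. Dut, which removes dUTP, fell in TAM (-2.13) and in granulocytes (-2.10), and stood at -1.03 in IM (adjusted p 0.0781) in the deposited tables.

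Among genes that copy chromatin and methylation, Uhrf1, which guides the maintenance methyltransferase to new DNA, fell in every subset, with -2.68 in TAM, -1.40 in IM and -2.31 in granulocytes in the deposited tables. The methyltransferase itself, Dnmt1, fell in TAM by 0.78 and stood just past the threshold in granulocytes (-0.52, adjusted p 0.0533) in the deposited tables. Chaf1a and Chaf1b, subunits of the histone chaperone CAF-1, fell in TAM (-2.26 and -1.18) and in granulocytes (-1.97 and -0.96) in the deposited tables. Slbp, which binds histone mRNA, fell in TAM by 0.60 with the smallest implied error of the 55 genes (0.10).

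All 4 genes of S phase entry fell in TAM. Ccne1 and Ccne2, the E cyclins, fell in TAM (-1.92 and -2.29) and in granulocytes (-1.51 and -1.45) in the deposited tables, while neither passed in IM. E2f1 fell in TAM by 0.78 and stood at -0.44 in granulocytes (adjusted p 0.069) in the deposited tables. E2f2 fell by 1.82 in TAM and by 0.90 in IM (adjusted p 0.0492), and stood at -0.09 in granulocytes in the deposited tables. Of fork protection, Tipin fell in TAM (-1.50) and in granulocytes (-0.81) in the deposited tables. Its partner Timeless fell in TAM (-1.19) and stood at 0.62 in IM without passing (adjusted p 0.382) in the deposited tables. Clspn, which carries the checkpoint signal at the fork, had the lowest mean of the 55 genes (4.6 counts per kilobase) and fell in TAM by 2.41, with an implied standard error of 0.61.

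The size of the change was compared between subsets with a test that weights the deposited Wald statistics by library numbers, adjusted over all genes tested in both subsets. It was chosen after the data were seen and does not model the tumours that subsets share. The SE printed beside each difference is scaled from the gene's implied standard error in TAM. The test itself used the Wald statistics of both subsets, so a difference divided by its SE need not equal the tested statistic. The deposited log2 fold change was lower in TAM than in IM for 55 of the 55 genes, against 53.4% of all genes. The difference passed for 34, each more negative in TAM, where 3.25% of all genes were. Rfc4 had the smallest adjusted p, with a difference of -1.46 ± 0.28 (SE, adjusted p 4.03e-05). Rfc5 differed by -1.30 ± 0.25 and Lig1 by -1.43 ± 0.29. All 5 genes of single-strand binding and lagging-strand maturation passed, as did 5 of the 6 MCM core genes, Mcm2 being the exception (adjusted p 0.0706).

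Between TAM and granulocytes 10 genes passed, each more negative in TAM, where 3.43% of all genes were. They were Rfc5, Gins4, E2f2, Fen1, Pola2, Pcna, Rpa2, Mcm10, Slbp and Tipin. E2f2 differed by -1.73 ± 0.45 (adjusted p 0.00299) and Mcm10 by -1.86 ± 0.62 (adjusted p 0.0342). No nucleotide supply gene and no MCM core gene passed. For 53 of the 55 genes the deposited log2 fold change was lower in TAM than in granulocytes, against 48.9% of all genes. It was higher for 1. Differences in nucleotide supply ran from 0.00 ± 0.61 in Rrm2 to -0.85 ± 0.51 in Tk1. In the MCM core they ran from -0.02 ± 0.29 in Mcm3 to -0.89 ± 0.39 in Mcm7. Rrm1 (adjusted p 0.0849) and Mcm4 (adjusted p 0.0936) lay past the threshold. For Rrm2 and Mcm3 the error leaves room for differences of moderate size either way.

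Between granulocytes and IM 4 genes passed, each more negative in granulocytes, where 1.02% of all genes were. They were Mcm3, at -1.17 ± 0.29, Lig1, at -1.16 ± 0.30, Chaf1b, at -1.13 ± 0.32, and Prim1, at -1.40 ± 0.38. The adjusted p of these differences were 0.0157, 0.0222, 0.0443 and 0.0472, the last 2 near the threshold. Here too the errors are scaled from the TAM values of each gene. No gene passed a test for opposite directions in any pair of subsets. With unadjusted p under 0.05 on both sides, opposite signs were found in 3 cases: Gins4 between TAM and IM, and Prim2 between IM and each other subset.

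**Figure D3:**
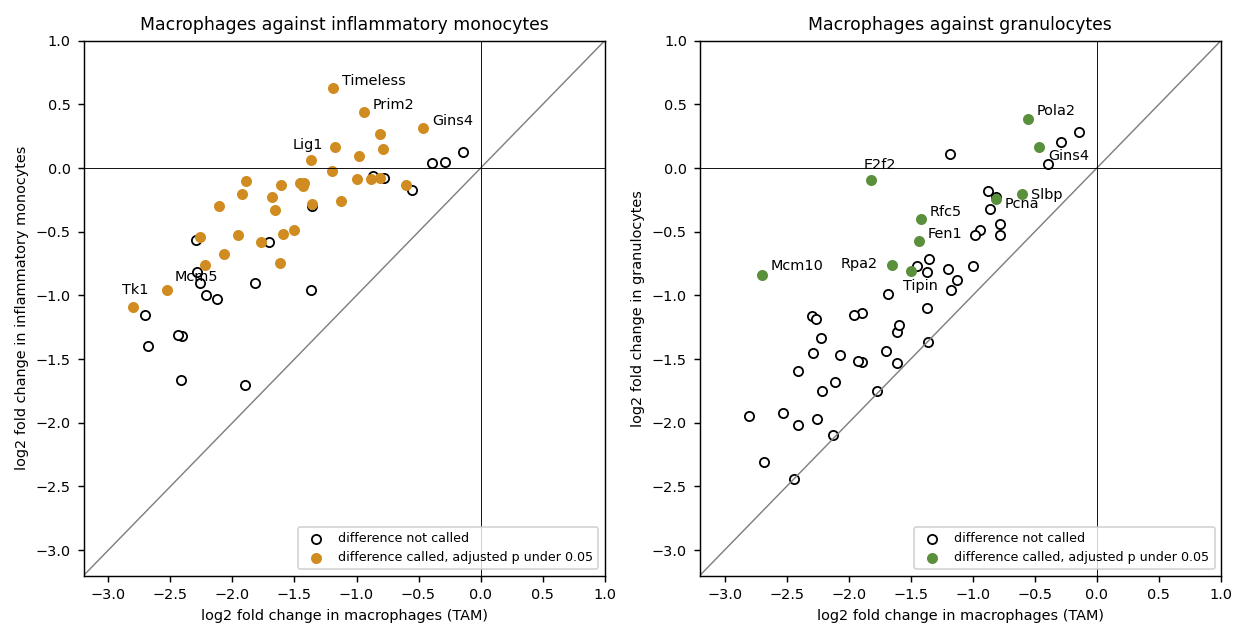
Deposited log2 fold change in TAM (x axes) against that in inflammatory monocytes (left) and granulocytes (right), 1 point per gene, with the line of equality; filled points are genes whose difference passed an adjusted p of 0.05. All 55 points lie above the line on the left, where 34 are filled, and 10 are filled on the right.

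Outside the 55 genes, 101 other genes of replication, nucleotide synthesis, S phase entry and chromatin copying were counted in 7 lists. By the authors' deposited values 67 fell and 6 rose in TAM, 5 fell and 3 rose in IM, and 32 fell and 4 rose in granulocytes. Of all genes tested, 12.5% fell and 13.9% rose in TAM, 1.77% and 4.13% in IM, and 9.9% and 7.32% in granulocytes. The share of the 101 that rose was below that of all genes in every subset. Of 20 genes of de novo purine and pyrimidine synthesis, 16 fell in TAM, 2 in IM and 11 in granulocytes. Mthfd2, a mitochondrial folate enzyme, was among those that fell in every subset, with -1.19 in TAM, -0.74 in IM and -0.78 in granulocytes in the deposited tables. Paics, an enzyme of purine synthesis, fell in TAM (-0.90) and in granulocytes (-0.66) in the deposited tables.

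Of 14 other licensing and initiation genes, 8 fell in TAM, 0 in IM and 3 in granulocytes. Gmnn, which encodes geminin, fell in TAM (-1.50) in the authors' deposited table. Orc5, an origin recognition subunit, rose in IM by 0.47 (adjusted p 0.0343) in the authors' deposited table. Of 13 other polymerase, clamp loading and Okazaki genes, 10 fell in TAM, 0 in IM and 3 in granulocytes, with Top2a, the topoisomerase that untangles sister DNA, at -2.69 in TAM and -2.89 in granulocytes in the deposited tables. Of 10 replication checkpoint genes 4 fell in TAM, 0 in IM and 1 in granulocytes, the last being about the 9.9% of all genes that fell there. Chek1, the checkpoint kinase, fell in TAM (-2.22), and Atrip, which recruits the kinase ATR, rose in granulocytes by 0.60 in the deposited tables. All 9 other genes of replication-coupled chromatin fell in TAM, 1 in IM and 4 in granulocytes, with the histone chaperone gene Asf1b at -2.21 in TAM and -1.68 in granulocytes in the deposited tables.

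Of 12 other genes of deoxynucleotide supply and removal, 6 fell and 2 rose in TAM, 0 fell and 1 rose in IM, and 2 fell and 1 rose in granulocytes. The shares of these 12 that rose in TAM and in granulocytes were near those of all genes, 13.9% and 7.32%. In IM 4.13% of all genes rose. Tk2, the mitochondrial thymidine kinase, rose in all 3 subsets, by 0.72 in TAM, 0.63 in IM and 0.35 in granulocytes in the deposited tables, where Tk1 fell. Samhd1, which degrades deoxynucleotides, was the other gene that rose in TAM, by 1.07 in the authors' deposited table, and stood at -0.07 in IM and 0.02 in granulocytes. Of 23 G1-S cyclins, kinases, E2F and pocket protein genes, 14 fell and 3 rose in TAM, 2 fell and 1 rose in IM, and 8 fell and 1 rose in granulocytes. The share of this list that rose was near or below that of all genes, 13.9% in TAM, 4.13% in IM and 7.32% in granulocytes. Cdk4, the kinase of D cyclins, fell in every subset, with -0.97, -0.43 and -0.71 in TAM, IM and granulocytes in the deposited tables. Rbl2, the pocket protein p130, rose in every subset, by 1.05 in TAM, 0.75 in IM and 0.69 in granulocytes, and Rb1 rose in TAM by 0.75 in the deposited tables. Samhd1, and the TAM and granulocyte values of Rbl2, were named after their values were seen, as were Ctps2 (0.63 in TAM and 0.40 in granulocytes) and Fbxw7 (0.53 in TAM), the other genes of these lists that rose in the deposited tables.

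A list of 20 mitotic genes, set beside the 55 for comparison, fell for 20 in TAM, 5 in IM and 19 in granulocytes in the authors' deposited tables. Their medians were -2.60, -1.34 and -2.18, against -1.59, -0.28 and -0.96 for the 55. Mki67, the proliferation marker, fell in TAM (-2.28) in the authors' deposited table. Cdk1, the mitotic kinase, fell in TAM (-2.49) and in granulocytes (-2.27) in the deposited tables.

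**Figure D4:**
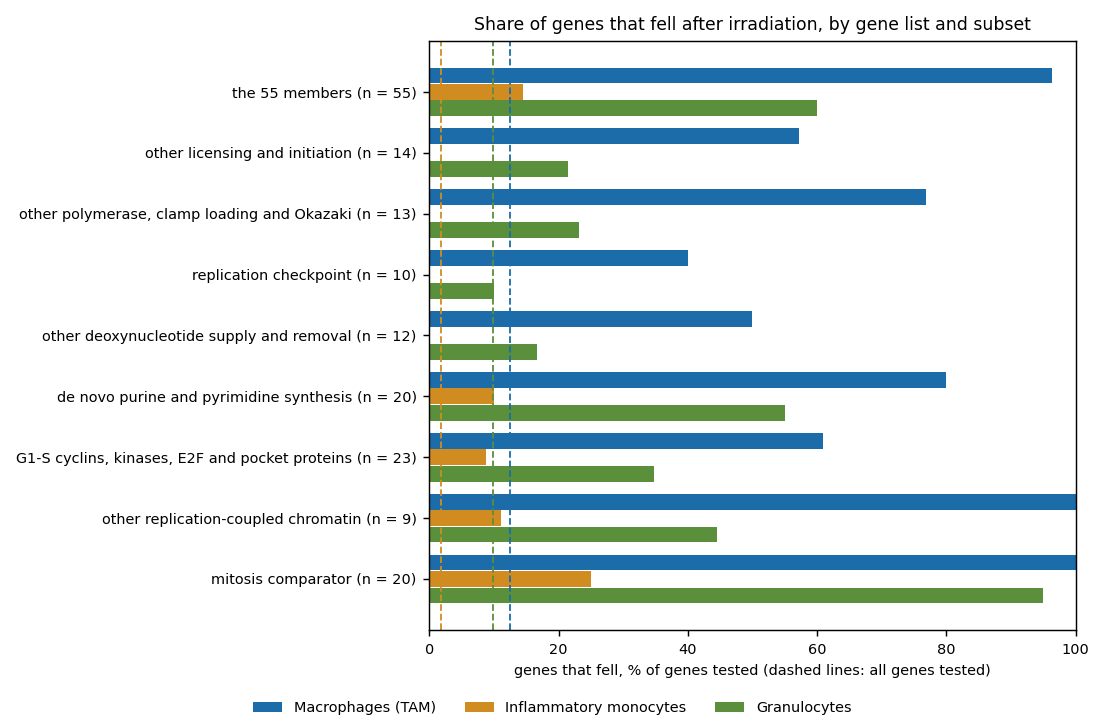
Share of genes that fell after irradiation (x axis, % of genes tested) for the 55 genes and each of 8 other lists, with 1 bar per subset and dashed lines at the share over all genes tested. The 55 genes stand above the dashed line of every subset, as do the lists of de novo synthesis, G1-S regulators, replication-coupled chromatin and mitosis.

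Some markers of cell types also moved with irradiation in the same comparisons. Of all genes tested, 12.5% fell and 13.9% rose in TAM, 1.77% and 4.13% in IM, and 9.9% and 7.32% in granulocytes. In TAM, 4 of 7 inflammatory monocyte markers and 6 of 8 neutrophil markers rose by the Wald statistic of the authors' deposited table, while 4 of 7 dendritic cell markers and 5 of 6 mitochondrial transcripts fell. In IM, 8 of 9 macrophage markers and 6 of 8 neutrophil markers rose, with Mertk at 1.91 in the authors' deposited table. In granulocytes, 3 of 9 macrophage and 3 of 7 monocyte markers rose and 4 of 6 mitochondrial transcripts fell, while 0 of 8 neutrophil markers passed. Of 8 tested genes of granulocyte progenitors and immature neutrophils, 5 rose in TAM, 2 in IM and 1 in granulocytes. Fibroblast markers fell for 2 of 6 in TAM and in granulocytes. Of 7 epithelial and tumour cell markers 1 rose in TAM (Cdh1, 0.99 in the authors' deposited table), of 8 T and NK cell markers 1 fell in TAM, and of 5 B and plasma cell markers 1 rose in IM. The epithelial and the T and NK cell counts in TAM are about the shares of all genes there. Of 3 eosinophil markers tested, 2 rose in TAM, 1 in IM and 1 in granulocytes. These directions follow the Wald statistic. In TAM the deposited fold is negative for 2 of the 6 neutrophil markers counted as risen, S100a9 (-1.24 beside a Wald statistic of 4.16) and S100a8 (-0.05 beside 2.99, named after its values were seen), and for Ngp and Camp among the 5 progenitor markers. The deposited mean pools all subsets, so whether a subset's defining markers were present in it could not be checked from these values. The part of these shifts in cell type markers in the change of the 55 genes was not tested.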

How the data were processed

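RNA of 3 sorted subsets was sequenced from Nextera XT libraries, per the labels' protocols. The submitters' processing notes name fastp 0.20.1, STAR 2.7.6a, DESeq2 1.28.1, R 4.0.2 and the build mm39 (GRCm39). The read counter and annotation release were not given in the sources used here. Nextera XT marks no strand, and reads of overlapping genes may be shared: 9 of the 55 genes share over 10% of their exon bases with another gene in GENCODE M21 (GRCm38).

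The authors deposited 3 tables of comparisons. Each gene's mean normalised count, a signal, was averaged by the authors across libraries and is identical in the 3 tables. The log2 fold change, the Wald statistic (a score) and the p-value, raw and adjusted, are also deposited by the authors. Library totals are unknown, so no depth or counting error is given. Each tumour number is taken as 1 replicate. Where the labels do not name separate animals, p-values measure the spread between these samples.

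The members and lists were chosen with earlier results of these data known. Genes were counted at a deposited adjusted p under 0.05. Of the other pathway lists, up to 4 called genes with the smallest p are named for each comparison, or the 2 of highest mean if none passed. Of marker lists up to 3 are named, and others are said to be chosen after their values were seen. Counts per kilobase divide the deposited mean by the exon length in GENCODE M21.

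For the difference between subsets, each Wald statistic was multiplied by the square root of the summed inverse library numbers, and the difference was divided by the error this implies. The SE printed beside log2 differences rescales the quotient of fold and Wald statistic in TAM by library numbers. The basis of the test was checked: the quotient of fold and Wald statistic, rescaled in this way, had a median ratio of 1.023 between IM and TAM over 44 of the 55 genes and of 1.023 between granulocytes and TAM over 52. A common shrinkage would give this too. Adjustment was by Benjamini-Hochberg. Tools were scipy 1.17.1, numpy 2.4.6 and pandas 2.3.3 under Python 3.11.15, and the functions were tested on simulated data. Alternatives were other thresholds, adjustment over every gene, a minimum mean count, a minimum fold, the direction of the fold, and re-centred or rescaled Wald statistics.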

Additional observations from a re-analysis of the deposited data

Results flagged for a closer look

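A test of the difference between subsets picked out counts of genes and single genes whose change after irradiation was unequal. The deposited log2 fold change was lower in TAM than in IM for all 55 genes, and the difference passed for 34 of them. Of all genes tested, 3.25% passed in that direction. The 5 with the smallest p were Rfc4, at a log2 difference of -1.46, Rfc5 at -1.30, Fen1 at -1.29, Lig1 at -1.43 and Gins4 at -0.78.

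Between TAM and granulocytes the test picked out 10 genes, each more negative in TAM, where 3.43% of all genes were. The clamp and its loader gave Rfc5 at -1.02 and Pcna at -0.57, and single-strand binding and flap trimming gave Rpa2 at -0.90 and Fen1 at -0.86. Gins4 differed by -0.63, Mcm10 by -1.86 and Pola2 by -0.94. The other genes were E2f2 at -1.73, Slbp at -0.40 and Tipin at -0.70.

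Between granulocytes and IM it picked out 4 genes, each more negative in granulocytes, where 1.02% of all genes were. They were Mcm3 at -1.17, Lig1 at -1.16, Chaf1b at -1.13 and Prim1 at -1.40.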

How the results depend on the processing

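The count of the 55 genes that fell in TAM stayed between 41 and 53, and that in granulocytes between 23 and 38, under every alternative run except division of the Wald statistics by their robust SD. Where it was counted under those alternatives, the share of all genes that fell ran from 4.47% to 18.5% in TAM and from 3.76% to 13.2% in granulocytes. Division by the robust SD, which was 2.72 in TAM, 1.56 in IM and 2.09 in granulocytes, left 0 of the 55 past the adjusted threshold in each subset. It also left 0 of all genes tested in TAM and in granulocytes, while 5 fell and 20 rose in IM. After it, 36, 3 and 19 of the 55 had an unadjusted p under 0.05 against 53, 20 and 43 as deposited. The share of all genes at this unadjusted cut was not counted, and 3 of 55 in IM is about the cut of 0.05 itself. The IM count of 8 was the least stable: it was 2 at an adjusted p of 0.01, 15 at 0.1 (14 fell and 1, Gins4, rose), 3 with adjustment over all genes that had a p-value and 4 with a log2 change of at least 1. Of all genes tested in IM, 0.634%, 3.09%, 0.46% and 0.469% fell at these settings in turn, against 1.77% as deposited. The 101 other pathway genes gave 8 calls in IM (5 fell and 3 rose), 4 at 0.01 (2 and 2) and 15 at 0.1 (11 and 4). Of all 14506 genes tested in IM, 257 fell and 599 rose, with 92 and 277 at 0.01 and 448 and 895 at 0.1. No gene of the 55 reversed direction. Added after the data were seen, leaving out the 9 genes with shared exons gave 44, 8 and 28 of 46 in TAM, IM and granulocytes. The differences between subsets, whose alternatives were also added later, passed for 32 to 35, 9 to 11 and 3 to 4 genes. Of all genes, 3.25% to 4.91%, 3.43% to 6.14% and 1.02% to 1.29% passed in the same direction. No paired analysis was possible because the tables hold comparisons without values of single libraries. Leaving out each replicate in turn was not run for the same reason, so the weight of 1 library in any call is unknown. The promoter letters stood in 14 of 46 genes with 2 strings only.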
